A study of Saccharomyces cerevisiae with 16 samples.

Results

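The stretch described here is the last part of the 5' external transcribed spacer (5' ETS) of the yeast pre-rRNA, nucleotides 481 to 700, which runs through the A0 cleavage site (after nucleotide 610) to the A1 site (after nucleotide 700, the 5' end of 18S). Its members are defined by position, as rows 481 to 700 of the deposited profiles counted from 1 at the 5' end of the transcript, and holds 220 of the 6647 profiled nucleotides. The A0 position was given with these bounds and was not checked against an annotation, so every distance from A0 rests on it. These comprise 65 A, 32 C, 52 G and 71 U. The 97 A and C sites, at which dimethyl sulfate (DMS) is read, divide into 61 among the 130 nt before A0 and 36 among the 90 nt between A0 and A1. The gene is RDN37, present in many copies in the rDNA array on chromosome XII, and no genome build was named in the sources used here.

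Small subunit (SSU) processomes had been purified by Utp10-TAP from Saccharomyces cerevisiae in 4 groups of 4 libraries, submitted as biological replicates. These were Has1-H375A with DMS, Has1-WT with DMS, Has1-H375A untreated and Has1-WT untreated. All cells had been grown in YPD to mid-log phase, and DMS was used at 1% for 5 min at 30 °C. The labels do not say whether DMS was applied to cells or to purified particles, so the rates may describe the RNA in either state. Nor do they say how the Has1 variants were expressed, and rRNA profiles cannot check the substitution.

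The SSU processome is the large nucleolar particle in which the precursor of 18S rRNA folds around the U3 snoRNA and is cut. The 5' ETS serves as its assembly platform and is removed in steps through cuts at A0 and A1, the second of which makes the mature 5' end of 18S. Utp10 belongs to the UtpA complex, which binds the 5' ETS early, and Has1 is a DEAD-box RNA helicase needed for 18S production. In DMS-MaPseq, A and C bases that are open to DMS are methylated on the edge used for base pairing, and reverse transcriptase can misread them. The mutation rate (mutated reads as a percent of the reads of sufficient quality, the effective depth) therefore reports accessible bases.

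The sequences of both segments are shown with the sites that the data turn on, read from the profiles. Capitals mark the A and C bases whose mutation rate was higher with DMS than without it in both genotypes (adjusted p under 0.05).
Nucleotides 481 to 610, before A0: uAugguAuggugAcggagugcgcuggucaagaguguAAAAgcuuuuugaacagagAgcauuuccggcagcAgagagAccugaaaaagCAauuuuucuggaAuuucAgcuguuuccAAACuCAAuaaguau
Nucleotides 611 to 700, A0 to A1: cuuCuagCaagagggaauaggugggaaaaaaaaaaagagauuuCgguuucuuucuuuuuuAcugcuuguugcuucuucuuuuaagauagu

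Median effective depth over the stretch was 261 to 8547 reads in H375A DMS libraries, 373 to 3175 in WT DMS libraries, 448 to 10561.5 in untreated H375A libraries and 354 to 3276 in untreated WT libraries. No nucleotide of it had fewer than 146 reads in any library, so all 97 A and C sites passed the minimum of 100. In the shallowest of these libraries, 1.15% of 261 reads carries a 95% confidence interval (Wilson) from 0.392% to 3.32%. In the deepest, with 10561.5 reads, the interval around 1.00% runs from 0.831% to 1.21%. Reads carried no molecular identifiers, so these intervals cover counting error alone. Replicate 1 of both genotypes stood apart in depth profile and in overall DMS rate, with scaling factors of 0.864 in H375A and 0.847 in WT against 1.03 to 1.13 in the other 6 DMS libraries.

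The A and C sites raised by DMS lay mainly in the loops and internal loops of a few hairpins predicted from sequence, and in the segment just before A0. By edgeR's quasi-likelihood test, 28 of 97 sites were higher with DMS in H375A, where 49.3% of the 1154 tested A and C sites from the transcript's 5' end to the A2 site were higher. In WT 29 of 97 were higher, against 45.4% of the 1154. Both genotypes shared 25 of these sites, against 40.8% of the 1154. A641 was lower with DMS in WT (log2 change -1.93, SE 0.75, adjusted p = 0.025; 0.0867% of the 1154 sites were called lower), and that call ended without WT replicate 2 (adjusted p = 0.0567) or WT replicate 3 (0.296) and with DESeq2 (0.0719). In the rest of the 5' ETS, nucleotides 1 to 480, 50.7% of sites were higher in H375A and 51.2% in WT, and in 18S 52.7% and 46.7%. The smaller share in the stretch was not tested, because neighbouring sites are not independent. With any 1 replicate left out, 19 of the 28 H375A calls and 24 of the 29 WT calls remained.

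Most sites higher with DMS lay before A0, as did 61 of the 97 A and C sites. Before A0, 23 of 61 sites were higher with DMS in H375A (37.7%) and 22 in WT (36.1%). Between A0 and A1, 5 of 36 were higher in H375A (13.9%) and 7 in WT (19.4%). Both segments were below the 49.3% in H375A and 45.4% in WT of the 1154 sites up to A2. The gap between the segments was widest among A bases. Of the 40 A sites before A0, 18 were higher in H375A and 19 in WT, and of the 25 A sites between A0 and A1, 2 were higher in H375A and 4 in WT. C sites showed 5 of 21 in H375A and 3 of 21 in WT before A0, and 3 of 11 in both genotypes after it. Separate shares for A and for C among the 1154 sites are not given here. The mean rate over the 65 A sites was 0.951% ± 0.128 (SD, n = 4) with DMS and 0.470% ± 0.025 untreated in H375A, and 1.06% ± 0.12 with DMS and 0.492% ± 0.052 untreated in WT. Over the 32 C sites it was 0.864% ± 0.050 with DMS and 0.490% ± 0.052 untreated in H375A, and 0.869% ± 0.069 with DMS and 0.523% ± 0.045 untreated in WT. Over the whole stretch, DMS libraries did not overlap untreated libraries for A or for C in either genotype. Between A0 and A1 they overlapped in H375A for both bases, and in WT for neither. There, H375A replicate 1 with DMS had 0.430% over A sites, against 0.481 to 0.536% untreated. Over C sites it had 0.666%, against 0.366 to 0.749% untreated. The A rate was 2.02 times the untreated rate in H375A and 2.15 times in WT, against 2.96 and 2.98 times in 18S. These means over chosen sites are given without a test.

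G and U, whose pairing face DMS does not methylate in the same way, gave a comparison within the same reads. None of the 123 G and U sites of the stretch was higher with DMS by edgeR in either genotype (0.0742% of 1347 tested sites were called in each genotype). At an unadjusted p under 0.05 there were 0 sites in H375A and 2 in WT. The mean rate over G was 0.877% ± 0.049 with DMS and 0.836% ± 0.056 untreated in H375A, and 0.891% ± 0.049 with DMS and 0.862% ± 0.113 untreated in WT, with overlapping libraries.

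**Figure D1:**
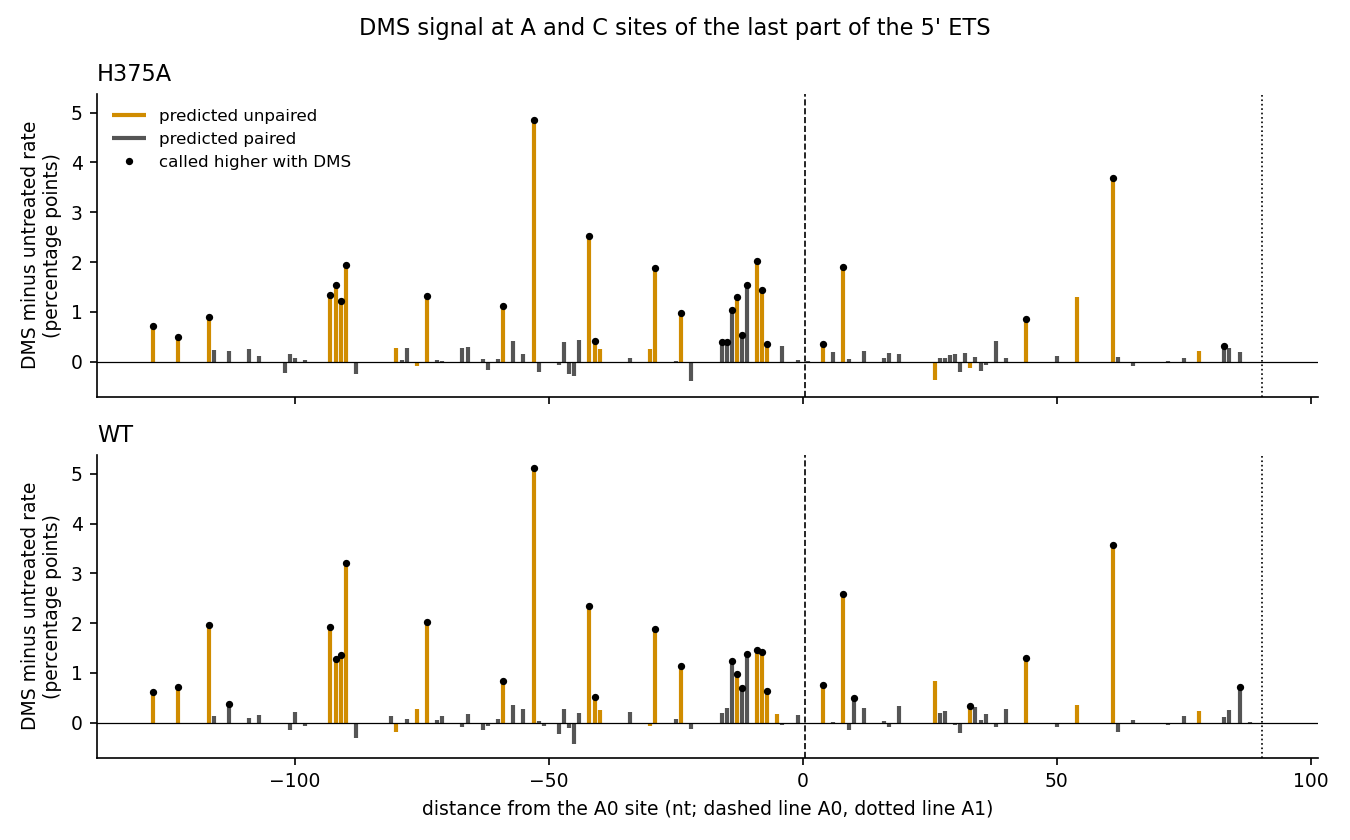
DMS rate minus untreated rate (percentage points, means of 4 libraries each) at the 97 A and C sites against distance from A0 in nt, with H375A above WT; colours give the predicted pairing and black dots the sites higher with DMS. Both genotypes show the highest value at 53 nt before A0 (A557) and a second high value at 61 nt after it (A671).

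The reactive sites were set beside a fold predicted from sequence alone. RNAfold's minimum free energy structure of the 220 nt at 37 °C had 81 pairs and -67.0 kcal/mol, and knows nothing of the proteins, the U3 snoRNA or the rest of the pre-rRNA. It left 31 A and C bases unpaired, of which 22 were higher with DMS in H375A, 23 in WT and 22 in both. Of the 66 bases predicted as paired, 6 were higher in H375A, 6 in WT and 3 in both. Thus 22 of the 25 sites higher in both genotypes (88%) lay at predicted unpaired bases, a share that was the same at 30 °C and with the segments on either side of A0 folded apart. The median DMS rate above untreated was 1.06 percentage points at unpaired and 0.0828 at paired bases. Bases within a helix are not independent, so no test is given.

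The fold placed 3 hairpins in the stretch. Their sequences are shown with capitals for the bases left unpaired, because the loops named in the following paragraphs are read from them.
Hairpin 1, nucleotides 494 to 545: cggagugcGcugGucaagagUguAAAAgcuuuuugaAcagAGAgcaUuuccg
Hairpin 2, nucleotides 546 to 591: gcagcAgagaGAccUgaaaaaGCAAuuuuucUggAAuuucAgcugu
Hairpin 3, nucleotides 606 to 700: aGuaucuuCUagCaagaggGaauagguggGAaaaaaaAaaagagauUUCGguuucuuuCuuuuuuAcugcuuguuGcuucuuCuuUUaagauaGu

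**Figure D2:**
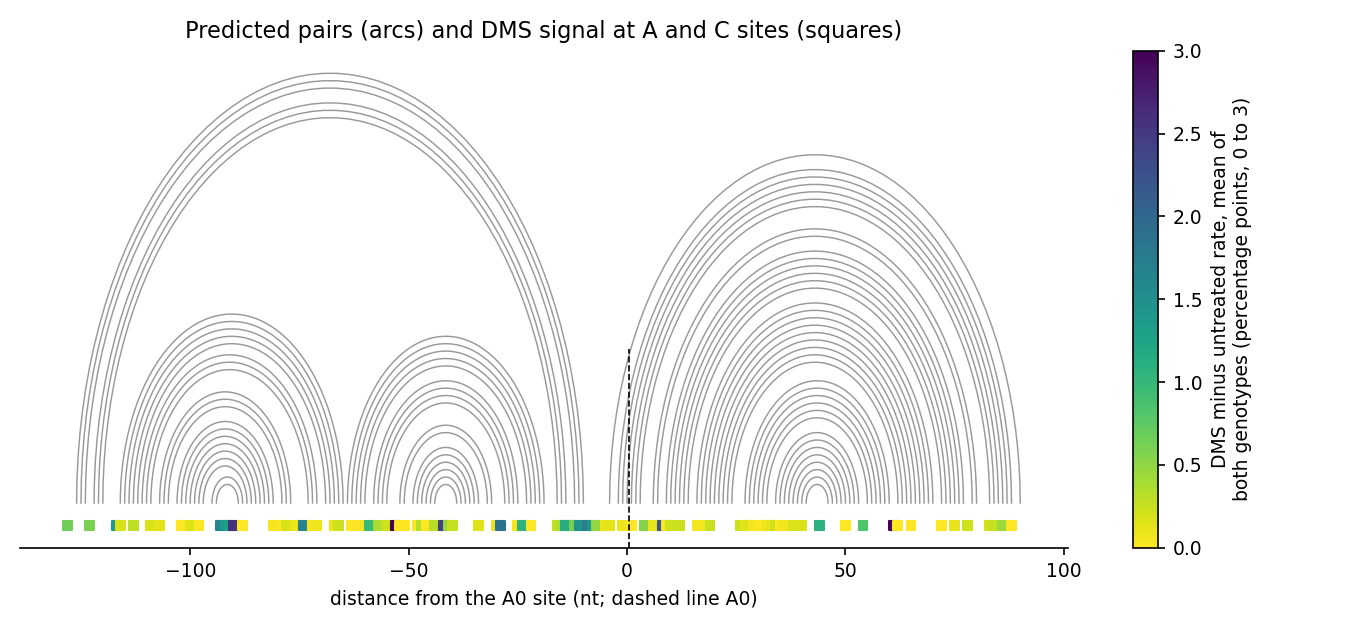
Predicted pairs of the stretch as arcs, and the DMS rate above untreated (mean of both genotypes, percentage points, colour scale capped at 0 and 3) at each A and C site as squares, against distance from A0 in nt. Dark squares lie mostly at bases without an arc, in the hairpin loops and part-way along the stems, and in the gap before A0. Most squares at paired bases are pale.

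In hairpin 1 all 4 bases of the loop, A517 to A520, were higher with DMS in both genotypes. A520, the last of them, had rates of 1.63, 3.07, 2.96 and 2.50% in H375A with DMS and 0.756, 0.348, 0.519 and 0.762% in untreated H375A. In WT it had 2.77, 3.91, 3.71 and 3.36% with DMS and 0, 0.267, 0.328 and 0.287% untreated. The DMS libraries of both genotypes lay above all untreated ones (log2 change 2.43, SE 0.30, adjusted p = 3.91e-13 in H375A; 3.69, SE 0.33, adjusted p = 2.10e-22 in WT). A517 had 1.32, 2.26, 2.23 and 1.78% in H375A with DMS and 1.72, 2.64, 2.21 and 2.72% in WT with DMS, and its 8 untreated rates ran from 0.141 to 0.916%. A518 and A519 averaged 1.85 and 1.47% in H375A and 1.59 and 1.69% in WT with DMS, with untreated means of at most 0.327%. On the 3' side of the stem, A536 was the next reactive base, with 2.70, 2.52, 2.61 and 2.25% in H375A with DMS and 2.92, 3.11, 3.18 and 2.58% in WT with DMS. Its untreated rates were also raised, 1.67, 1.09, 0.597 and 1.47% in H375A and 0.552, 1.04, 0.951 and 1.11% in WT. No untreated library reached the DMS libraries. The unpaired A530 and A534 did not pass in either genotype. Of the 16 paired A and C bases of this hairpin, 0 were higher in H375A and 1 in WT (A497, log2 change 0.87, adjusted p = 0.0131), a call that ended without WT replicate 2 (0.109) or 3 (0.288), with DESeq2 (0.0535) and with rates taken over each library's G and U rate (0.0587).

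Just 5' of hairpin 1 stands A493, an unpaired base at the foot of the stem. Its rates were 1.48, 1.39, 1.81 and 1.53% in H375A with DMS and 2.61, 2.70, 1.98 and 2.44% in WT with DMS, so the genotypes did not overlap. Untreated rates were 0.376, 0.708, 0.550 and 0.95% in H375A and 0.376, 0.385, 0.467 and 0.644% in WT. DMS raised the rate by 1.37 on the log2 scale in H375A (SE 0.29, adjusted p = 1.49e-05) and by 2.40 in WT (SE 0.30, adjusted p = 5.40e-13). The genotype difference at this site is given with the other genotype comparisons.

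Hairpin 2 held the site with the largest DMS signal of the stretch, A557, an unpaired base in an internal loop of the stem. It had 4.89, 4.28, 5.87 and 5.75% in H375A with DMS and 0.269, 0.535, 0.335 and 0.233% in untreated H375A. In WT it had 3.69, 6.10, 6.01 and 8.04% with DMS and 1.48, 0.586, 0.612 and 0.733% untreated. Every DMS library was above every untreated one (log2 change 3.8, SE 0.33, adjusted p = 7.11e-23 in H375A; 3.15, SE 0.31, adjusted p = 4.25e-19 in WT). The loop, nucleotides 567 to 570, reads GCAA, a member of the GNRA family of stable tetraloops. Its bases differed among themselves. C568 had 3.49, 2.71, 2.69 and 3.18% in H375A with DMS and 2.25, 3.05, 3.03 and 3.04% in WT with DMS, against untreated means of 0.487% in H375A and 0.488% in WT. A569 was lower, 0.715% ± 0.190 with DMS and 0.301% ± 0.358 untreated in H375A and 0.771% ± 0.209 with DMS and 0.245% ± 0.167 untreated in WT (SD, n = 4). It passed in both genotypes, although its H375A call ended without H375A replicate 3 (adjusted p = 0.245), and A570, the last base of the loop, passed in neither.

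The pair of unpaired A bases on the 3' side of hairpin 2 behaved differently from each other. A581 had 2.65, 1.63, 2.72 and 1.46% in H375A with DMS and 0.410, 2.75, 2.63 and 2.98% in WT with DMS, and its 8 untreated rates ran from 0 to 0.549%. WT replicate 1 thus lay within the untreated range, while the other 7 DMS libraries were above it. The neighbouring A580 had 0.456% ± 0.145 in H375A and 0.356% ± 0.058 in WT with DMS and did not pass in either genotype (adjusted p = 0.0591 in H375A, 0.0391 with replicate as a block; 0.835 in WT). A551 and A586, also unpaired, were higher in both genotypes. The calls of A586 ended without H375A replicate 3 (adjusted p = 0.0727) or WT replicate 3 (0.104). None of the 15 paired A and C bases of hairpin 2 was higher with DMS in either genotype.

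**Figure D3:**
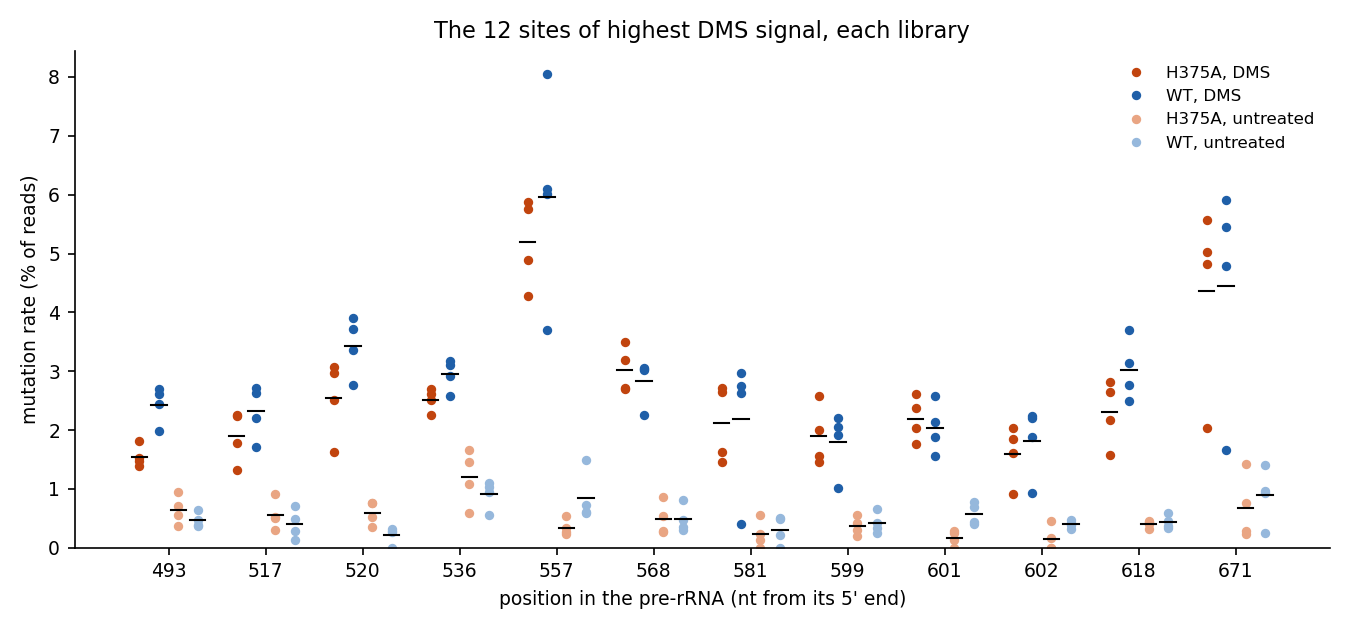
Mutation rate (% of reads) in each library at the 12 A and C sites with the highest DMS signal, by position in the pre-rRNA; points are libraries, black lines group means, in the order H375A with DMS, WT with DMS, H375A untreated and WT untreated. DMS points lie above the untreated points of their genotype at 11 sites, and at position 581 the lowest WT DMS point, 0.410%, lies among them.

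Between hairpin 2 and A0, a run of 9 A and C bases from C594 to A603 was higher with DMS in H375A, and 7 of them also in WT. Some of these bases were predicted to pair with nucleotides 485 to 490, at the 5' end of the stretch, and this closing stem held all 3 paired sites that were higher in both genotypes, namely A596, A598 and C599. C599 had 1.55, 1.46, 2.0 and 2.58% in H375A with DMS and 0.299, 0.194, 0.415 and 0.559% in untreated H375A. In WT it had 1.02, 2.05, 2.20 and 1.92% with DMS and 0.420, 0.250, 0.668 and 0.334% untreated. A596 averaged 1.25% ± 0.93 in H375A and 1.57% ± 0.61 in WT with DMS, with 0% in H375A replicate 1. C601 and A602, both unpaired, were among the 12 sites of highest signal. C601 had 2.37, 1.77, 2.04 and 2.61% in H375A with DMS and 1.56, 2.14, 1.88 and 2.58% in WT with DMS, against 0.282, 0.257, 0.133 and 0% in untreated H375A and 0.403, 0.690, 0.440 and 0.774% in untreated WT. A602 had 0.913, 1.85, 2.03 and 1.61% in H375A with DMS and 0.929, 2.24, 2.20 and 1.88% in WT with DMS, and its untreated rates did not exceed 0.464%. The calls of C594 and C595, made in H375A and not in WT, ended without H375A replicate 3 (adjusted p = 0.220 and 0.294), and that of C595 also without replicate 2 (0.0863). Both ended with DESeq2 (0.0752 and 0.178), and C595 with rates over the G and U rate (0.0607).

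Within 10 nt of A0 on either side, 5 of 12 A and C sites were higher with DMS in H375A and 6 in WT. Among the 1154 sites up to A2, 49.3% were higher in H375A and 45.4% in WT. Of the sites called near A0, 3 lay before the cut in each genotype. The 3 before it were C601, A602 and A603. A603 had 0, 0.598, 0.658 and 1.06% in H375A with DMS and 0.576, 0.788, 0.769 and 0.687% in WT with DMS, and its H375A call (adjusted p = 0.0286) ended without replicate 2, 3 or 4 (0.0894 to 0.129), with DESeq2 (0.124) and with rates over the G and U rate (0.0655). The bases next to the cut passed in neither genotype. A605, A606 and A609 averaged 0.192, 0.712 and 0.326% in H375A with DMS and 0.20, 0.397 and 0.303% in untreated H375A, and 0.541, 0.380 and 0.462% in WT with DMS and 0.368, 0.422 and 0.312% in untreated WT. C611, the first nucleotide after A0, had 0.152% in H375A with DMS and 0.140% untreated, and 0.131% in WT with and without DMS.

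After A0 the reactive bases were C614 and C618, both unpaired in hairpin 3. C618 had 1.57, 2.16, 2.65 and 2.82% in H375A with DMS and 0.449, 0.328, 0.40 and 0.436% in untreated H375A. In WT it had 3.69, 3.13, 2.49 and 2.76% with DMS and 0.339, 0.457, 0.366 and 0.597% untreated. The DMS libraries lay above the untreated ones in both genotypes. C614 had 0, 0.694, 0.766 and 0.496% in H375A with DMS and 0.811, 0.964, 1.03 and 1.24% in WT with DMS, without overlap between the genotypes, and untreated means of 0.143% in H375A and 0.247% in WT. Its H375A call ended without replicate 3 (adjusted p = 0.0613). A620 was higher in WT alone (log2 change 1.36, SE 0.57, adjusted p = 0.0388), and that call ended without WT replicate 1, 2 or 3 (0.051 to 0.247), with DESeq2 (0.0643) and with rates over the G and U rate (0.0890), and without replicate 1 of both genotypes (0.0891). A616 and A619 passed in neither genotype.

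Further into hairpin 3, 2 bases stood out. A671, unpaired on the 3' arm, had the second highest signal of the stretch, with 2.03, 5.02, 4.81 and 5.57% in H375A with DMS and 0.232, 1.42, 0.762 and 0.278% in untreated H375A. In WT it had 1.66, 5.91, 4.79 and 5.45% with DMS and 0.249, 0.939, 1.41 and 0.967% untreated. Replicate 1 was the lowest DMS library of either genotype, yet above the untreated libraries (log2 change 2.60, SE 0.32, adjusted p = 4.75e-13 in H375A; 2.15, SE 0.33, adjusted p = 5.20e-09 in WT). The loop of the hairpin, nucleotides 652 to 655, reads UUCG, the sequence of another well known tetraloop, closed here by a predicted pair of U and G. Its C654 had 1.55, 2.05, 1.91 and 1.99% in H375A with DMS and 0.412, 2.09, 0.952 and 0.641% in untreated H375A. In WT it had 1.44, 2.07, 1.93 and 2.28% with DMS and 0, 0.664, 0.805 and 1.02% untreated. Untreated H375A replicate 2 reached the DMS level, and the H375A call (adjusted p = 0.0351) ended without replicate 3 (0.374) or 4 (0.0801), with DESeq2 (0.117) and with rates over the G and U rate (0.0947). Of the 30 paired A and C bases of hairpin 3, 1 was higher in H375A and 2 in WT.

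A run of 11 A bases, nucleotides 636 to 646, lies on the 5' arm of hairpin 3 and gave few calls. The fold paired 9 of the 11. None was higher with DMS in H375A, and 1 was in WT, A643 (log2 change 1.85, SE 0.61, adjusted p = 0.0078), a call that ended without WT replicate 2 (0.092) or with DESeq2 (0.0594). Leaving out A636, whose background is described with the untreated libraries, mean DMS rates at the other 10 ran from 0.199 to 0.954% in H375A and from 0.0807 to 0.763% in WT. The median rate above untreated over the run was 0.0671 percentage points in H375A and 0.169 in WT. Over the 97 sites of the stretch it was 0.182 in H375A and 0.188 in WT. Among the 1154 sites up to A2, 49.3% were higher with DMS in H375A and 45.4% in WT.

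Towards A1, few sites were called in the last 20 nt before the 5' end of 18S. Of the 7 A and C sites there, 1 was higher with DMS in H375A and 1 in WT, and they were different sites. Among the 1154 sites up to A2 the shares were 49.3% in H375A and 45.4% in WT. The median rate above untreated over the 7 sites was 0.197 percentage points in H375A and 0.140 in WT. Over the 97 sites it was 0.182 and 0.188. A693 was higher in H375A (0.491% ± 0.249 with DMS and 0.177% ± 0.127 untreated, SD, n = 4; adjusted p = 0.0389), and the call ended without replicate 2, 3 or 4 (0.0605 to 0.143), with DESeq2 (0.143) and with rates over the G and U rate (0.0799). A696 was higher in WT (0.872% ± 0.351 with DMS and 0.163% ± 0.126 untreated; adjusted p = 0.000289). Neither site was called between genotypes by edgeR (adjusted p = 0.658 and 0.646). C682, C685, C688, A694 and A698 passed in neither genotype, with A694 passing in WT when replicate was a block (adjusted p = 0.0505 without the block, 0.0431 with it). In the predicted fold A693 to A698 face nucleotides 608 to 613, so the A0 site lies in the stem opposite the last bases before A1.

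Between genotypes, no site of the stretch was called. The comparison asks whether DMS accessibility of the pre-rRNA recovered with the particles differed between H375A and WT. Of the 97 sites, 44 had enough DMS signal for the test (mean DMS rate at least 0.2 percentage points above untreated). edgeR called 0 of the 44, against 3.59% of the 725 sites tested up to A2, and 3 had an unadjusted p under 0.05, against 12% of the 725. The 3 were all lower in H375A, and DESeq2 and a quasi-binomial model also called 0 sites. A493 averaged 1.55% ± 0.18 in H375A and 2.43% ± 0.32 in WT (SD, n = 4; log2 change -0.52, SE 0.18, unadjusted p = 0.0042, adjusted p = 0.0987). A520 averaged 2.54% ± 0.65 in H375A and 3.44% ± 0.50 in WT (log2 change -0.32, SE 0.15, adjusted p = 0.366). A555, a paired base of hairpin 2, had 0, 0.484, 0.417 and 1.15% in H375A and 1.36, 0.753, 0.83 and 0.974% in WT (log2 change -0.79, SE 0.32, adjusted p = 0.236). A555 was not itself higher with DMS in either genotype (adjusted p = 0.375 in H375A and 0.0828 in WT, 0.0483 in WT with replicate as a block).

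After scaling of the libraries, rates did not overlap between genotypes at 3 of the 44 sites (A493, A520 and C614, all lower in H375A), against 5.79% of the 725. C614 had a log2 change of -0.51 (SE 0.30, adjusted p = 0.517). Over the 44 sites, 33 were lower and 11 higher in H375A, with a median log2 change of -0.12, where the median of the 725 was 0.02 and 48% were lower. With the untreated libraries taken into account through the genotype by treatment interaction, 23 were lower and 21 higher, with a median of -0.01. The call of A493 depended on the scaling. With factors taken from 25S, which moved the median of the 725 sites to -0.11, its log2 change was -0.66 and it passed (adjusted p = 0.0189).

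**Figure D4:**
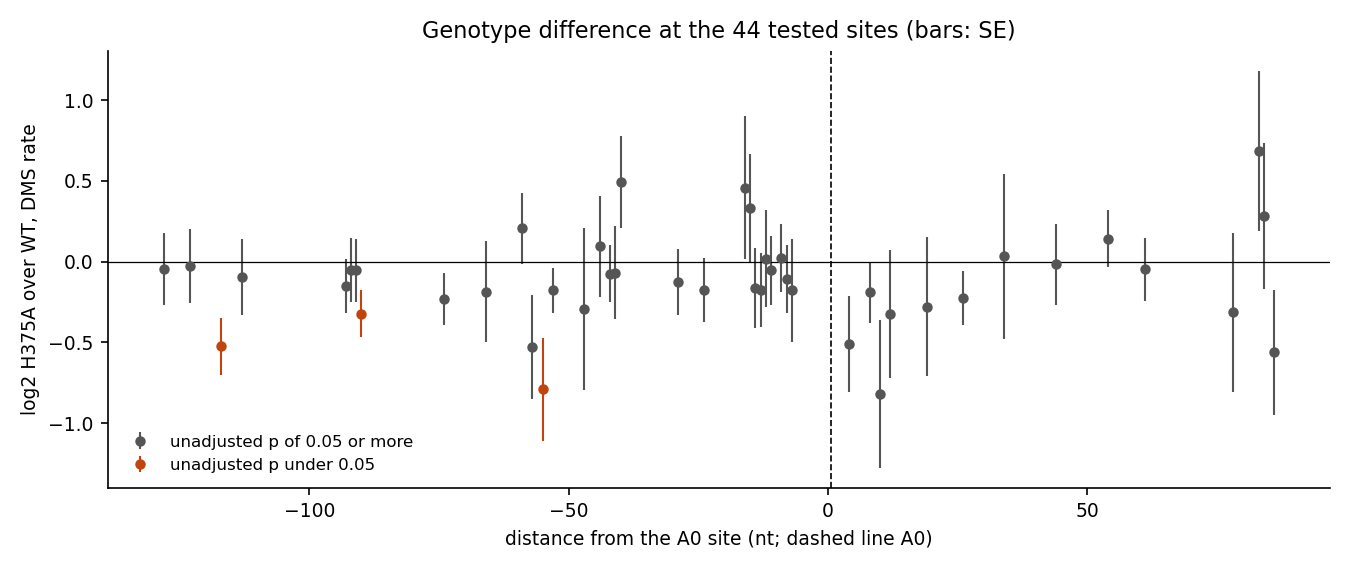
Log2 ratio of the DMS rate, H375A over WT (points, bars SE), at the 44 tested sites against distance from A0 in nt; red marks the 3 sites with an unadjusted p under 0.05. Of the points, 33 lie below 0 and 11 above, and most bars reach 0.

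The mean DMS rate per library over the 97 sites was 0.790, 0.914, 0.974 and 1.01% in H375A and 0.855, 1.09, 1.01 and 1.04% in WT. The groups overlapped, and the log2 ratio of the geometric means was -0.11. Divided by the scaling factors, the same means gave 0.906% in H375A and 0.961% in WT (log2 ratio -0.09) and no longer overlapped. As a mean over chosen sites this has no test.

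Without DMS, no site was called between genotypes. Of the 90 sites of any base with enough mutated reads, edgeR called 0 between untreated H375A and untreated WT (0% of the 554 sites tested up to A2), with 3 at an unadjusted p under 0.05, against 1.44% of the 554 (8 sites). DESeq2 called 0, and the lowest adjusted p by edgeR was 0.997. Of the 4 sites with the highest background, G635, A636 and G647 lie in or next to the A run. C664 lies beyond the run, on the 3' arm of hairpin 3. G635, the base just before the run, had 22.4, 15.2, 16.3 and 20.6% in untreated H375A and 26.0, 16.5, 16.4 and 16.8% in untreated WT. With DMS it averaged 18.3% ± 2.97 in H375A and 17.8% ± 2.27 in WT (SD, n = 4), so DMS made no detectable difference (edgeR adjusted p = 0.998 and 0.991). A636, C664 and G647 followed with untreated means of 4.07, 3.47 and 1.58% in H375A and 3.92, 4.18 and 2.12% in WT. A636 and C664 were not higher with DMS by the test, so no DMS signal can be read from them at this background. Both were predicted to be unpaired.

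Read depth was followed across both cleavage sites, since it shows how much pre-rRNA was covered on either side of each cut. Depth per nucleotide was expressed over the mean depth of 18S in the same library. Before A0 it was 0.763, 1.96, 2.01 and 1.87 in H375A with DMS and 1.05, 2.51, 2.45 and 2.28 in WT with DMS. Replicate 1 was the lowest of each group and the groups overlapped. The means were 1.65 ± 0.59 and 2.07 ± 0.69 (SD, n = 4; log2 -0.35, exact two-sided permutation p = 0.457, adjusted over 8 tests 1). The log2 value was -0.013 without H375A replicate 1 and -0.65 without WT replicate 1. H375A was the lower in 4 of 4 same-numbered pairs, for which an exact test gives no p below 0.125. The labels do not say that equal numbers link the genotypes. Untreated libraries gave 1.58 ± 0.60 in H375A and 1.87 ± 0.57 in WT (log2 -0.28, exact permutation p = 0.571), also lower in 4 of 4 pairs. They are the controls of the same replicates, so their pairs are not independent of those with DMS. Between A0 and A1 depth over 18S was 1.26 ± 0.12 in H375A and 1.28 ± 0.16 in WT with DMS, and 1.18 ± 0.26 in H375A and 1.18 ± 0.28 in WT untreated (exact permutation p = 0.857 and 1).

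Depth changed little across A0 and rose across A1. The mean of the 20 nt before A0 over that of the 20 nt after it was 0.920 ± 0.091 in H375A and 0.918 ± 0.076 in WT with DMS, and 0.935 ± 0.119 in H375A and 0.921 ± 0.062 in WT untreated. Depth was lower at the 3' end of hairpins 1 and 2 than at their 5' end. In 20-nt windows it averaged 2.06 over nucleotides 481 to 500 and 1.26 over 581 to 600 in H375A with DMS, and 2.66 and 1.46 in WT with DMS. It reached 1.12 in H375A and 1.03 in WT over nucleotides 661 to 680 with DMS, 1.35 in H375A and 1.15 in WT over nucleotides 681 to 700, and 1.81 in H375A and 1.72 in WT over the first 20 nt of 18S. Across A1 the ratio before over after was below 1 in all 16 libraries. It was 0.763, 0.683, 0.750 and 0.776 in H375A with DMS and 0.683, 0.637, 0.693 and 0.646 in WT with DMS. H375A was higher in 4 of 4 pairs, but 1 library of each group overlapped (log2 0.16, exact permutation p = 0.0571, adjusted over 8 tests 0.457). The smallest p that 4 libraries against 4 can give is 0.0286, so a single separated comparison could not pass after adjustment over 8 tests. Untreated libraries, the controls of the same replicates, averaged 0.690 ± 0.061 in H375A and 0.643 ± 0.051 in WT. H375A was the higher in 4 of 4 of their pairs (log2 0.10, exact permutation p = 0.314). Between DMS and untreated libraries, none of the 8 depth tests passed (adjusted exact permutation p of 0.943 in each). The step across A1 in H375A was higher with DMS in 4 of 4 pairs, 0.763, 0.683, 0.750 and 0.776 with DMS and 0.728, 0.603, 0.694 and 0.735 untreated (exact test of pairs, p = 0.125, the smallest that 4 pairs can give).

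**Figure D5:**
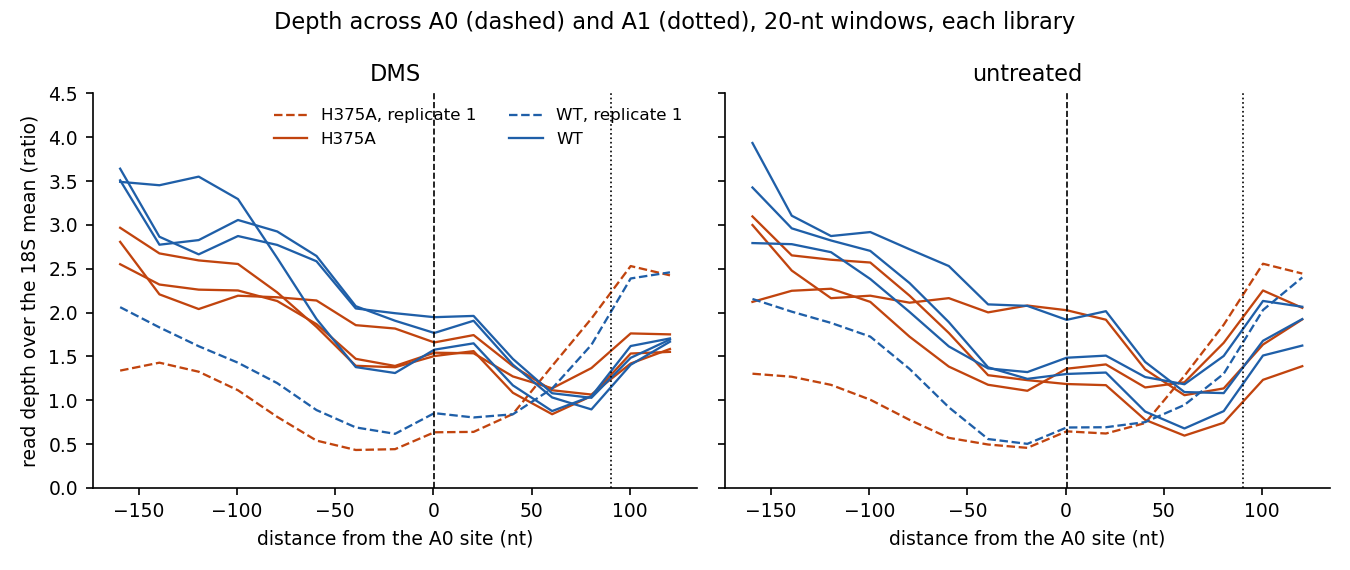
Read depth over the 18S mean (ratio) in 20-nt windows against distance from A0 in nt, each line 1 library, DMS on the left and untreated on the right; dashed coloured lines are replicate 1. Replicate 1 of both genotypes lies below the other replicates before A0 and above most of them at the start of 18S.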

How the data were processed

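DMS-MaPseq was measured in 16 libraries. The deposited profiles give, per the file headers, counts of mutated reads, read depth and effective depth for each nucleotide of the pre-rRNA, and the authors' mutation rate as a fraction. That rate equalled mutated reads over effective depth to within 5e-07, without background subtraction. Aligner, caller, read filters and build are not given in the sources used here. Such filters, and how deletions were counted, affect every rate, and rDNA copies were read as 1 sequence. RefSeq names (assembly R64) were used for lengths alone.

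Stretch, sites and lists were chosen with earlier results of these data known. Mutated reads were tested with edgeR 4.0.16 (quasi-likelihood, R 4.3.3) over all A and C sites up to A2 (nucleotide 2712) with at least 100 effective reads in every library, with Benjamini-Hochberg adjustment over all of them and calls at an adjusted p under 0.05. For DMS against untreated the offset was the log of effective depth, on all 16 libraries. Between genotypes it also held a scaling factor, the median ratio of a library's rates to the geometric mean over 594 sites, and sites needed 0.2 percentage points of signal and an untreated rate under 5%. The untreated test used sites of any base with at least 10 mutated reads on average. G and U were tested after the data had been seen. SEs were taken from the test statistic. Depth ratios were compared by exact permutation. Folds came from RNAfold 2.7.2.

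Sites named by rule (33) were those with an unadjusted p under 0.05 between genotypes, the 12 of highest DMS signal, the 4 of highest untreated rate, and A and C sites within 10 nt of A0 or 20 nt before A1; others named were chosen after their values were seen. Alternatives were DESeq2 1.42.0, a quasi-binomial model, other scalings (factors from 25S, or rates over each library's G and U rate), depth minimums and filters, the interaction, the replicate block and each replicate left out.

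DMS and untreated libraries of 1 number are paired by the series' design, which gives each sample its own untreated control. The main tests did not use this pairing, which entered only as an alternative. Same-numbered libraries correlated in their deviations from group means by 0.15, 0.07, 0.23 and -0.02 in H375A and 0.16, 0.07, 0.18 and 0.03 in WT. For replicates 2 and 4, an untreated library of another number correlated more with the DMS library. The values were 0.081 and 0.021 in H375A and 0.127 and 0.057 in WT.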

Additional observations from a re-analysis of the deposited data

Results flagged for a closer look

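In groups of 4 libraries, 11 of 164 sets of values had 1 library far from the other 3 (Dixon's test at 95%), where chance gives about 8.2. For depth before A0 over 18S, replicate 1 stood apart in H375A with DMS (0.763, against 1.87 to 2.01) and in WT with DMS (1.05, against 2.28 to 2.51). For the mean rate at G sites of the stretch, the highest library was at 0.964% in WT with DMS (others 0.858 to 0.871%) and 1.03% in untreated WT (others 0.797 to 0.821%). At single sites with DMS in WT, C568 had a library at 2.25% (others 3.03 to 3.05%) and A581 at 0.410% (others 2.63 to 2.98%). Among untreated H375A libraries, A605 had 1 at 0.0676% (others 0.240 to 0.252%) and A616 1 at 0.584% (others 0.438 to 0.457%). Among untreated WT libraries, A557 had 1 at 1.48% (others 0.586 to 0.733%), G635 1 at 26.0% (others 16.4 to 16.8%) and C688 1 at 0.483% (others 0.143 to 0.194%). The DMS effect differed between genotypes at 0 of 44 sites by edgeR's interaction term, with 5 at an unadjusted p under 0.05. No cause of these values was tested.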

How the results depend on the processing

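Depth, the library scaling and single replicates set the limits. Between genotypes, 1 site passed with scaling from 25S (A493) and 0 under the other 17 alternatives run, the replicate block included, with 0 for each library left out. Same-numbered libraries of the genotypes correlated by -0.0015 to 0.20 with DMS and 0.053 to 0.289 untreated. For replicates 1, 2 and 3, each H375A library correlated more with the same-numbered WT library than with any other, with DMS and untreated. For replicate 4 it did not (-0.0015 against 0.022 with DMS, 0.053 against 0.067 untreated). Whether equal numbers mark a shared batch was not tested. DMS calls in H375A were 16 with a depth minimum of 200, which left 69 sites to test and 16 of the 28 called sites among them, 22 with DESeq2, 24 with rates over each library's G and U rate, 29 with the replicate block and 20 to 30 with 1 replicate left out. In WT they were 20 with that minimum, 26 with DESeq2, 26 with rates over the G and U rate, 32 with the block and 25 to 31 with 1 replicate left out. The block ended none of the calls and added A580 in H375A and A555, A622 and A694 in WT. Untreated calls between genotypes stayed at 0 in all 12 alternatives. Over all 725 sites, genotype calls were 26, but 13 with DESeq2, 7 with the quasi-binomial model, 11 without H375A replicate 3, 14 without WT replicate 2 or 3, 16 without H375A replicate 2 and 0 with the interaction.

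No depth comparison passed in any setting, but these tests had little room to pass. Before adjustment the smallest exact p is 0.0286 for 4 libraries against 4, 0.1 for 3 against 3 and 0.125 for 4 pairs. The replicate block and the setting without replicate 1 of both genotypes therefore could not pass, nor could a single separated comparison in the main test. The absence of calls thus does not show equal depth. Of the 16 comparisons, 10 changed sign in at least 1 setting (all values log2). Depth between A0 and A1 over 18S, H375A over WT, was 0.032 with DMS and -0.047 untreated by median depth, and -0.079 untreated without replicate 1 of both genotypes, an alternative chosen after seeing the data. The step across A0, H375A over WT with DMS, was -0.0041 by effective depth and -0.11 over 50 nt, and untreated -0.0022 over 50 nt and -0.0039 by median depth. DMS over untreated, that step was 0.00074 in H375A by median depth, and in WT 0.0085 by effective depth and 0.014 over 50 nt. With 1 library left out, depth before A0 ranged over -0.65 to -0.013 for H375A over WT with DMS, -0.51 to 0.049 for untreated H375A over WT, -0.27 to 0.40 for DMS over untreated in H375A and -0.10 to 0.43 in WT. Depth from A0 to A1 ranged over -0.10 to 0.041 for H375A over WT with DMS, -0.12 to 0.15 untreated and -0.027 to 0.22 for DMS over untreated in H375A. The step across A0 ranged over -0.058 to 0.057 for H375A over WT with DMS, -0.055 to 0.074 untreated, -0.079 to 0.050 for DMS over untreated in H375A and -0.049 to 0.034 in WT. The cause of these changes was not tested. The step across A1 kept its direction in all alternatives run.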
